A study of Mus musculus with 2 samples.

Results

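The EGF receptor family, its ligands and the receptor inhibitor Errfi1 were compared between a neurosphere culture and cells labelled as from the VZ/SVZ, the ventricular-subventricular zone that lines the lateral ventricles and holds the adult brain's neural stem cells. Neurospheres are balls of cells that grow in suspension from such stem and progenitor cells when growth factors are supplied without serum. The 10 genes were the receptors Egfr, Erbb2, Erbb3 and Erbb4, the ligands Hbegf, Areg, Ereg, Tgfa and Btc, and Errfi1. They were chosen by name, and every non-control probe whose gene name in both scanner files equalled one of them was taken, which gave 20 of 56599 probes. Each group had 1 one-colour Agilent array, so there were 2 arrays in all, no replicates and no test. Both samples were β-galactosidase-positive brain cells of C57BL/6 mice aged 6 months that were heterozygous for Ecrg4, per the labels. The labels place both cell samples in DMEM/F12 with bFGF, EGF and heparin, while naming the second sample only by its tissue zone, so whether and how long the VZ/SVZ cells were exposed to EGF in culture is not clear. How many animals gave each sample, how long cells were cultured and how β-galactosidase positivity was assessed: none of these is given in the sources used here.

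EGF-family ligands are made as membrane-anchored precursors, and most are cut free by ADAM proteases before they bind ErbB receptors on the same or neighbouring cells. Bound receptors pair with each other and signal through Ras, ERK and PI3K, and Errfi1 (also called Mig6) binds the kinase domain of active receptors and shuts them off. In the adult subventricular zone Egfr is known as a receptor of dividing progenitors and activated stem cells, Erbb4 as a receptor of migrating neuroblasts, and EGF is a standard mitogen of neurosphere culture.

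By brightest probe, 3 of the 9 measured genes passed 2-fold towards VZ/SVZ and 1 towards the neurosphere. Of all genes measured, 18.7% and 11.1% did, so calls in both directions were not particular to this family. Egfr was 3.23-fold higher in the neurosphere by its brightest probe, while VZ/SVZ had 19.1-fold more Areg signal and 5.93-fold more Ereg signal. Errfi1 was 10.5-fold higher there too. Hbegf, Erbb4, Tgfa, Btc and Erbb2 lay within 2-fold by their brightest probes, and neither Erbb3 probe was well above background on either array.

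Probe sequences show what was measured for the genes on which these results turn. Among the 10 genes' brightest probes, that of Areg had the largest difference towards VZ/SVZ and that of Egfr the largest towards the neurosphere. The 2 Erbb4 probes are shown because they differed in direction, and capitals mark the 22 bases they share. All are 60 bases long, as the scanner files give them, 5′ to 3′.
Areg, A_52_P482897: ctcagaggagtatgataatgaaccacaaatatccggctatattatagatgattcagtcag
Egfr, A_52_P56471: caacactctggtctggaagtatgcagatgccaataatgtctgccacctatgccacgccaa
Erbb4, A_51_P283698: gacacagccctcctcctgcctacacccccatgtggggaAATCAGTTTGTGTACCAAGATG
Erbb4, A_52_P256090: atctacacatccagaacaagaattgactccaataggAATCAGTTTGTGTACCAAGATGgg

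In what follows, the signal is the scanner's processed intensity. A difference is the log2 level in VZ/SVZ minus that in the neurosphere, after each array was shifted by the 75th percentile of its log2 probe values. Values after ± come from the scanner's own error model (median 0.21 for a difference), are technical, and say nothing of how animals or cultures vary. A probe not well above background on 1 array is called dim there and has only a bound, written "at least": its bright level is set against its own dim level or, if that is lower, against the lowest level that array measured well above background. Of the 20 probes, 12 were well above background on both arrays, 4 on the VZ/SVZ array only, 1 on the neurosphere array only and 3 on neither. The whole arrays had 61.2% (neurosphere) and 66.2% (VZ/SVZ) of probes well above background, and no spot was saturated. In bulk RNA, fewer cells of a type and less RNA per cell cannot be told apart.

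**Figure D1:**
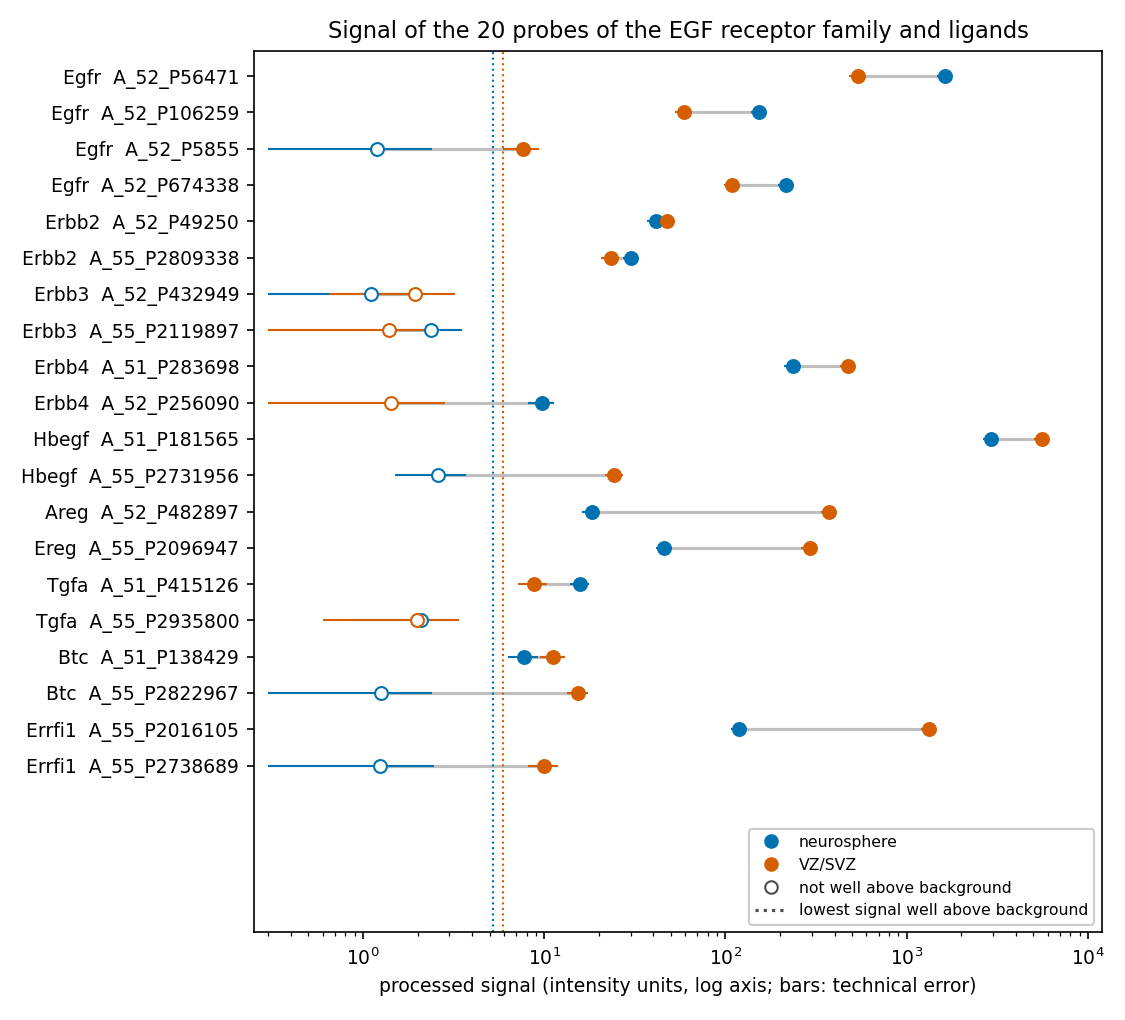
Processed signal (intensity units, log axis) of each of the 20 probes on the arrays of the neurosphere (blue) and of VZ/SVZ (orange), with technical error bars; bars that reach 0 end at the left edge. Open circles were not well above background, dotted lines give the lowest signal well above background, and the widest gaps between filled circles are those of Areg (18.3 and 373) and Errfi1 (119 and 1332).

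Among the receptors, Egfr had the largest difference. Its brightest probe, A_52_P56471, read 1624 in the neurosphere and 537 in VZ/SVZ, a difference of -1.69 ± 0.20. It lies at chr11:16783545-16783604 (mm9, plus strand) and is listed for NM_007912. The probes A_52_P106259 and A_52_P674338, both listed for NM_207655, read 153 against 58.8 and 217 against 109. Their differences were -1.48 ± 0.21 and -1.09 ± 0.20, or 2.78-fold and 2.13-fold, so all 3 probes listed for RefSeq transcripts of Egfr passed 2-fold towards the neurosphere. They lie at chr11:16813815-16813874 and chr11:16812181-16812240 (mm9). With background corrected by normexp, which here also added an offset of 50 to each spot, A_52_P56471 stayed past 2-fold (-1.56). The other 2 fell within it, at -0.95 and -0.79. Across all genes measured, 96.2% had a higher difference than Egfr.

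Erbb2, the receptor without a known ligand of its own and the usual partner of the others, was nearly level. A_52_P49250 read 41.2 in the neurosphere and 47.4 in VZ/SVZ (0.11 ± 0.21), and A_55_P2809338 read 30.3 and 23.4 (-0.47 ± 0.22). The probes lie at chr11:98298103-98298162 and chr11:98298394-98298453 (mm9) and pointed in opposite directions, the first by less than its technical error.

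Erbb3, a receptor with a weak kinase that recruits PI3K, was not well above background on either array. Its probes read 1.11 and 2.37 in the neurosphere, then 1.93 and 1.40 in VZ/SVZ, against a lowest signal well above background of 5.20 and 5.93. No fold is given. Erbb3 is known in oligodendrocyte and Schwann lineage cells. Of 8 oligodendrocyte lineage markers Pdgfra and Cspg4 passed 2-fold towards VZ/SVZ and none towards the neurosphere. Pdgfra was dim in the neurosphere and its 2 measured probes were at 1.14 and 6.24, while Cspg4 was at 1.08. The summed signal of this list was 5342 in the neurosphere and 3520 in VZ/SVZ, of which Olig1 made 5265 and 2991. Gpr17 was dim on both arrays, and Sox10 read 10.04 and 15.3. Of 5 Schwann cell markers 1 was past 2-fold, towards the neurosphere (444 and 442). Among all genes measured, 18.7% passed 2-fold towards VZ/SVZ and 11.1% towards the neurosphere.

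Erbb4, a neuregulin receptor, differed between its probes. A_51_P283698 read 235 in the neurosphere and 474 in VZ/SVZ, which is 1.89-fold higher in VZ/SVZ (0.92 ± 0.20). A_52_P256090 read 9.69 in the neurosphere and was not well above background in VZ/SVZ (1.42), at least 1.74-fold higher in the neurosphere. Both probes lie on the minus strand of chromosome 1 and cross a splice junction: their 60 bases span 1229 and 28839 bases of the genome, chr1:68089291-68090519 and chr1:68089289-68118127 (mm9). On the genome the whole span of A_51_P283698 lies between the ends of the other probe. Erbb4 transcripts are known to include or skip an exon of the cytoplasmic tail that carries a PI3K binding site (the CYT-1 and CYT-2 forms), and whether these probes read those forms was not tested against a gene annotation. With normexp the difference of A_51_P283698 was 0.81 and the bound of A_52_P256090 was -0.19; with quantile normalization they were 1.08 and -1.35. The 2 probes kept opposite directions in both.

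**Figure D2:**
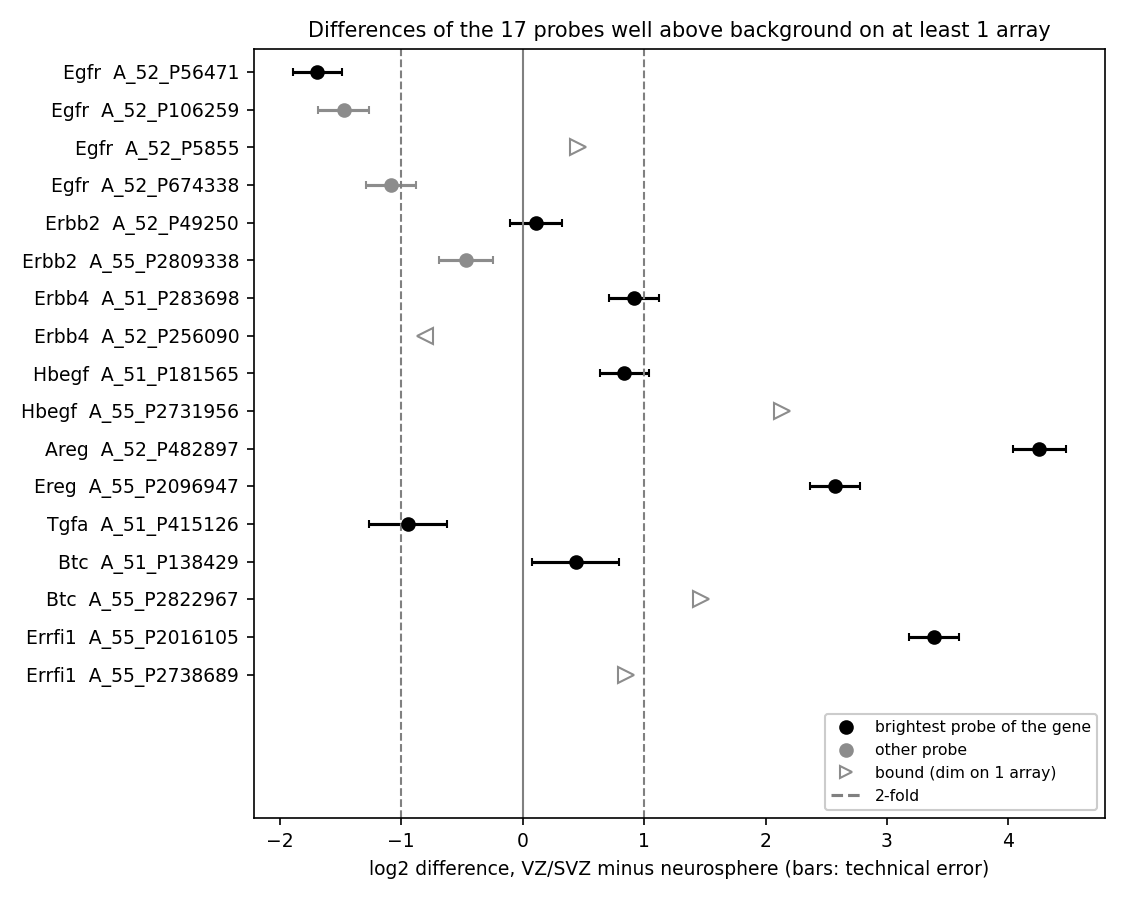
Log2 difference (VZ/SVZ minus neurosphere) of the 17 probes measured on either array, with technical error bars; black points are the brightest probe of a gene, grey points its other probes, and triangles are bounds. Dashed lines mark 2-fold. To the right of it lie Areg, Ereg, the brightest Errfi1 probe and the bounds of Hbegf A_55_P2731956 (2.13) and Btc A_55_P2822967 (1.47). To the left lie 3 Egfr probes.

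The ligands were led by amphiregulin, Areg, a low-affinity Egfr ligand shed from its precursor. Its single probe read 18.3 ± 2.11 in the neurosphere and 373 ± 37.3 in VZ/SVZ, a difference of 4.26 ± 0.22, and 1.03% of all genes measured had a higher one. With normexp the difference was 2.56, in the same direction and still past 2-fold. The probe lies at chr5:91570090-91570149 (mm9).

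Epiregulin, Ereg, which binds Egfr and Erbb4, also has 1 probe. It read 46.0 in the neurosphere and 291 in VZ/SVZ, a difference of 2.57 ± 0.21, and 1.70 with normexp. The probe lies at chr5:91522553-91522612 (mm9).

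Hbegf, a heparin-binding ligand of Egfr and Erbb4, stayed within 2-fold by its brightest probe. A_51_P181565 read 2922 in the neurosphere and 5571 in VZ/SVZ, 1.79-fold higher (0.84 ± 0.20), and passed 2-fold with quantile normalization (1.11). Its other probe, A_55_P2731956, is listed for a cDNA clone (AK052084). It was dim in the neurosphere (2.61) and read 24.4 in VZ/SVZ, at least 4.39-fold higher, or 0.43 on the log2 scale with normexp.

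Tgfa, the classical second ligand of Egfr, pointed the other way at low signal. A_51_P415126 (chr6:86224838-86224897, mm9) read 15.8 in the neurosphere and 8.75 in VZ/SVZ (-0.95 ± 0.32). That difference was -0.25 with normexp and -1.43 with quantile normalization, so whether Tgfa passed 2-fold depended on the processing. The other Tgfa probe was not well above background on either array (2.08 and 1.99).

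Betacellulin, Btc, another ligand of Egfr and Erbb4, was near background on both arrays. A_51_P138429 (chr5:91788031-91788090, mm9) read 7.78 and 11.2 (0.44 ± 0.36), and was -0.09 with quantile normalization. A_55_P2822967 was dim in the neurosphere (1.25) and read 15.3 in VZ/SVZ, at least 2.76-fold higher, or 0.24 on the log2 scale with normexp.

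Errfi1, the feedback inhibitor, read 119 in the neurosphere and 1332 in VZ/SVZ by A_55_P2016105 (chr4:150242886-150242945, mm9), a difference of 3.39 ± 0.21. Normexp gave 2.93. The second probe, A_55_P2738689, is listed for a cDNA clone (AK168797) and was dim in the neurosphere (1.24), reading 10.01 in VZ/SVZ, at least 1.80-fold higher, or 0.07 on the log2 scale with normexp. Egfr and its inhibitor therefore had opposite directions in this pair of samples.

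By brightest probe, Areg, Ereg and Errfi1, 3 of the 9 measured genes, passed 2-fold towards VZ/SVZ, as did 18.7% of all 26434 genes measured. Towards the neurosphere Egfr did, 1 of 9, against 11.1% of all genes. The same 3 and 1 passed 3-fold, against 9.9% and 4.46% of all genes. The median difference was 0.84 over the 9 genes and 0.04 over all genes. Counted by probe, 5 of 17 were higher in VZ/SVZ and 3 of 17 in the neurosphere, against 18.3% and 11.8% of all measured probes. With quantile normalization Hbegf and Erbb4 joined the genes higher in VZ/SVZ and Tgfa those higher in the neurosphere. Over all genes, those higher in VZ/SVZ made up 62.8% of calls with the main scaling and 51.9% with quantile normalization.

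**Figure D3:**
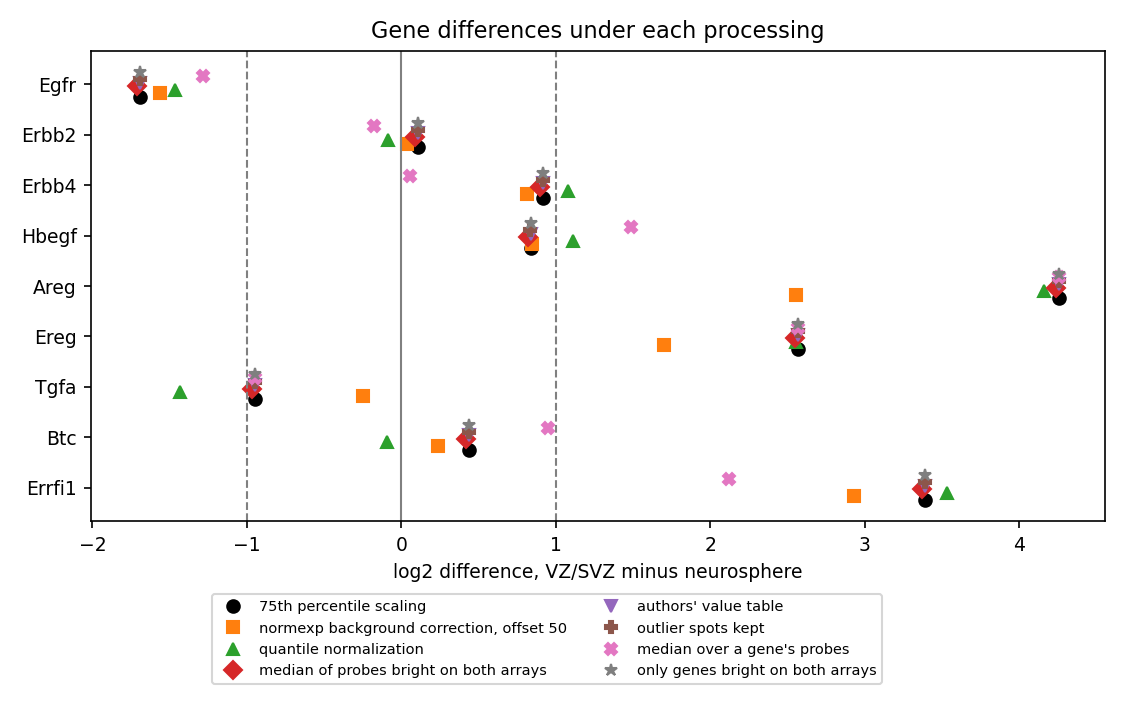
Log2 difference (VZ/SVZ minus neurosphere) of the 9 measured genes under the main processing (black) and 7 alternatives, 1 symbol each; dashed lines mark 2-fold. Areg, Ereg and Errfi1 stayed above 2-fold and Egfr below -1 in each, while Tgfa ranged from -1.43 to -0.25 and Btc from -0.09 to 0.95. Several alternatives nearly repeat the main values by construction.

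The probes listed for cDNA clones and for no RefSeq or Ensembl transcript shared a pattern, seen after their values were known. These 3, of Egfr, Hbegf and Errfi1, were each dim in the neurosphere and measured in VZ/SVZ. For Egfr this probe, A_52_P5855 (chr11:16655638-16655697, mm9), read 1.20 and 7.62, at least 1.37-fold higher in VZ/SVZ, but with normexp and with quantile normalization its bound was 0.0, with no direction. The Tgfa probe A_55_P2935800, listed for a clone and also for an Ensembl transcript, did not show the pattern and was dim on both arrays (2.08 and 1.99). Across the arrays most clone probes did not show the pattern, though a larger share did than of probes for RefSeq messenger RNAs. Of 3157 measured probes listed for such clones (AK accessions), 23.0% were dim in the neurosphere alone and 27.7% passed 2-fold towards VZ/SVZ. Of 23599 measured probes listed for RefSeq messenger RNAs, the shares were 8.98% and 14.7%. Its cause was not tested.

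Areg, Ereg and Btc are neighbours on chromosome 5, where their probes lie within 266 kb (mm9). In the order of protein-coding genes in RefSeq's mouse table, Epgn (epigen), Ereg, Areg and Btc follow each other. Epgn was not well above background on either array, so the block held 2 genes far above 2-fold, 1 within it by its brightest probe and 1 not measured. Genes on either side, looked up after the values of Areg and Ereg were seen, differed in direction. The chemokine genes Cxcl1 and Cxcl2 were 6.95-fold and at least 3.72-fold higher in VZ/SVZ, Mthfd2l was 2.73-fold higher in the neurosphere, and beyond Btc Parm1 and Rchy1 were at 0.40 and -0.18 and VZ/SVZ had at least 10.2-fold more Odaph signal.

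Promoter sequence was examined because Areg and Errfi1 differed the same way, a choice made after their values were seen. Of the 10 genes, 7 had a window in the RefSeq promoter table (GRCm38.p6), Errfi1 with 2, and the 250 bases before each start were searched on both strands. Ereg, Hbegf and Erbb3 had no window, so Ereg, also higher in VZ/SVZ, could not be searched. The cAMP response element TGACGTCA, read by CREB and ATF factors, was found before Areg and before 1 start of Errfi1, and in none of the windows of Btc, Egfr, Erbb2, Erbb4 and Tgfa. It stood in 1.55% of all 32851 windows. The AP-1 letters TGANTCA were in none of the 8 windows (6.75% of all). The TEAD letters GGAATG were before Erbb2 and the other Errfi1 start (12.6% of all). No window held more than 1 of these 3 motifs. In capitals, the element begins 61 bases before the Areg start and 51 bases before the Errfi1 start.
Areg, chr5:91139349-91139598 (GRCm38.p6, plus strand): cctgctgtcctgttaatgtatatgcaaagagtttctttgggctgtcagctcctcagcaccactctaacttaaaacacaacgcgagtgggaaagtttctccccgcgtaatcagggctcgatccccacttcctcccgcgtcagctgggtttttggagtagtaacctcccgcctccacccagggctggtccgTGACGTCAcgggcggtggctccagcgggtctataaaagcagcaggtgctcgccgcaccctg
Errfi1, chr4:150854820-150855069 (GRCm38.p6, plus strand): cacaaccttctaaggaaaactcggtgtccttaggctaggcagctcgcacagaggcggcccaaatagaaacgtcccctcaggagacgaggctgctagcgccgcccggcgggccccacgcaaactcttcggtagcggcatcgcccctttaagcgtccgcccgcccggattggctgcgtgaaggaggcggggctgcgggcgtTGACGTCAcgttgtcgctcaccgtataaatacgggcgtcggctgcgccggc
Of 373 measured genes with the cAMP element's letters, 11.8% passed 2-fold towards VZ/SVZ and 13.4% towards the neurosphere, against 16.6% and 12.6% of the 14691 measured genes with a window. A match is a description of the letters and does not show that a factor bound there.

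The rest of the pathway was read from lists chosen, like the 10 genes, with earlier results of these data known. Their counts stand beside the 18.7% of all genes measured that passed 2-fold towards VZ/SVZ and the 11.1% towards the neurosphere. Of the 6 other EGF-family ligands, 4 were measured. Nrg1, the neuregulin that binds Erbb3 and Erbb4, was 3.60-fold higher in VZ/SVZ (1.85 ± 0.20), with its 5 measured probes between 1.49 and 4.38. Nrg3 was at least 2.82-fold higher there at low signal, Nrg4 was 3.18-fold higher in the neurosphere (-1.67 ± 0.30), and Nrg2 was at -0.10 ± 0.22. Egf itself and Epgn were dim on both arrays. With normexp 1 of this list was past 2-fold, towards VZ/SVZ.

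Among 11 shedding and processing genes, 3 were past 2-fold towards VZ/SVZ and 1 towards the neurosphere (median 0.19). The shares of all genes were 18.7% and 11.1%. The iRhom gene Rhbdf2, which carries the sheddase Adam17 to the cell surface, was dim in the neurosphere (1.03) and read 130 in VZ/SVZ, at least 23.5-fold higher. The metalloprotease genes Adam19 (2.52-fold higher in VZ/SVZ) and Adam12 (3.60-fold higher in the neurosphere) had opposite directions, and the inhibitor Timp3 was 2.19-fold higher in VZ/SVZ. Adam17 was at -0.23 ± 0.20 and Adam10, the other main sheddase of these ligands, at -0.82 ± 0.20; both were named after their values were seen. Rhbdl2 was at 0.88.

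Of 12 genes that restrain the receptors, 2 were past 2-fold towards VZ/SVZ and 1 towards the neurosphere (median -0.44), near the 18.7% and 11.1% of all genes. With normexp the counts in this list were 1 and 0, and with quantile normalization 2 and 0. The call towards the neurosphere (Ptprj) was thus lost in both. Lrig3, of a family of leucine-rich transmembrane proteins that bind ErbB receptors, was 2.23-fold higher in VZ/SVZ. The ubiquitin ligase gene Cblb was 2.08-fold higher there, and the phosphatase gene Ptprj 2.08-fold higher in the neurosphere. Ptpn9 and Cbl were at -0.95 and -0.84. All 10 endocytosis and sorting genes lay within 2-fold, from Usp8 at -0.78 to Hgs at 0.57 (median -0.17).

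Of 25 adaptor and Ras, ERK and PI3K signalling genes, 21 lay within 2-fold (median -0.28). Past it were 1 towards VZ/SVZ and 3 towards the neurosphere, against 18.7% and 11.1% of all genes. The adaptor gene Shc1 was 3.97-fold higher in VZ/SVZ (1.99 ± 0.20). Higher in the neurosphere were Pik3r1, a regulatory subunit of PI3K (3.06-fold), the docking protein gene Gab1 (2.41-fold) and the adaptor gene Shc3 (2.22-fold). Shc1 and Shc3 thus differed in direction. Nras was at -0.87. With normexp 1 rather than 3 genes of this list was past 2-fold towards the neurosphere.

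Of 18 ERK response genes, 3 were past 2-fold towards VZ/SVZ and 4 towards the neurosphere, with a median of 0.04. The shares of all genes were 18.7% and 11.1%. Plaur, the urokinase receptor gene, was 14.6-fold higher in VZ/SVZ (3.87 ± 0.24), and the AP-1 gene Fosl1 3.59-fold (1.84 ± 0.22). Etv5 (3.32-fold), the feedback gene Spry2 (2.76-fold) and the cyclin gene Ccnd1 (2.74-fold) were higher in the neurosphere. Errfi1, another feedback gene, thus stood opposite to Spry2 in direction.

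**Figure D4:**
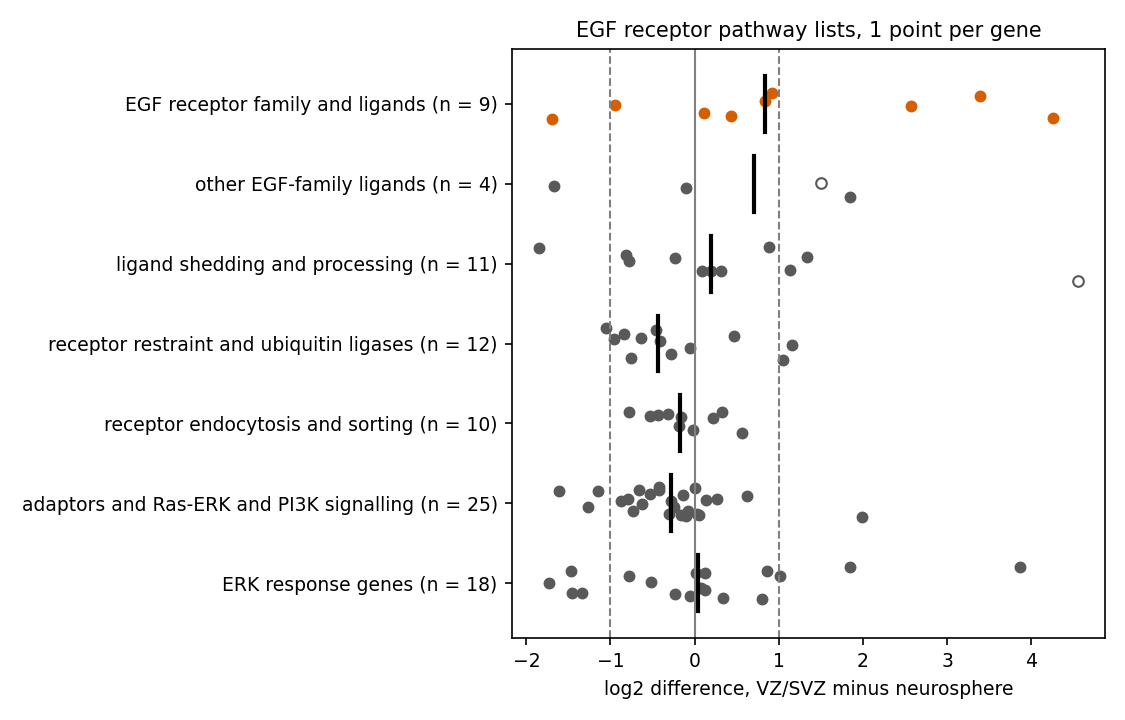
Log2 difference (VZ/SVZ minus neurosphere) of each measured gene of the EGF receptor family and of 6 pathway lists, with the number measured; open circles are bounds, black bars medians and dashed lines 2-fold. All 10 endocytosis genes lie between the dashed lines, while the family itself runs from -1.69 to 4.26.

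Cell type markers differed between the samples too, and their part in the values above was not tested. Their counts also stand beside 18.7% of all genes towards VZ/SVZ and 11.1% towards the neurosphere. All 5 fibroblast markers passed 2-fold towards VZ/SVZ, Col3a1, Dcn, Col1a1 and Lum being dim in the neurosphere, with a summed signal of 40.3 in the neurosphere and 10510.1 in VZ/SVZ. Of 6 endothelial markers 4 were higher there and 1 in the neurosphere (summed signal 212 and 980), and of 6 mural markers 4 and none (7151 and 7991). Of 9 neural stem markers 4 were past 2-fold towards the neurosphere and 1 towards VZ/SVZ (66096 and 36132). Sums are of unscaled signal and can rest mostly on 1 gene, as on Fabp7 here (42131 and 21259) and on Acta2 among mural markers (6756 and 5741). Counts use the brightest probe, and probes could disagree. Those of Slc1a3 ran from -3.90 to 0.74, of Pax6 from -2.12 to 0.32, of Acta2 from -0.33 to 4.31 and of Gfap from 0.92 to 5.13. Probes of the fibroblast marker Col3a1 ran from 0.91 to 9.04 and of the mature neuron marker Snap25 from -0.45 to 2.49. Of 5 transit-amplifying progenitor markers, the cells in which Egfr is best known, the neurosphere had 4.97-fold more Mki67 and 3.46-fold more Olig2 signal, and Dlx2 was 6.66-fold higher in VZ/SVZ (summed signal 9836.5 and 3040.0). Of 7 neuroblast markers, cells in which Erbb4 is known, 2 were higher on each side (2290 and 2300), with Dlx5 dim on both arrays. Of the labelled zone's ependymal lining, 3 of 6 markers passed 2-fold, all towards the neurosphere (938 and 196), Ak7 being dim on both. Of 6 mature neuron markers, Nefm (at least 77.9-fold), Nefl (at least 19.96-fold) and Syt1 (at least 2.24-fold) passed towards VZ/SVZ, Snap25 read 5391 and 5421, and Rbfox3 and Slc17a7 were dim on both arrays (summed signal 5402 and 5976). Of 6 choroid plexus markers, Folr1 (2.18-fold) and Clic6 (at least 4.37-fold) passed towards VZ/SVZ (9.1 and 41.9), with Ttr, Kl, Kcne2 and Slc4a5 dim on both. Of 8 microglia markers, Trem2 passed towards VZ/SVZ (at least 3.80-fold), Csf1r read 1568 and 1857, and Cx3cr1, P2ry12, C1qa and Tyrobp were dim on both (1610 and 1944). Of 3 erythrocyte markers none passed 2-fold (33.8 and 42.4), and Hbb-b1 was dim on both. Of 6 astrocyte markers, 3 passed 2-fold towards VZ/SVZ and 2 towards the neurosphere.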

How the data were processed

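Cy3-labelled cRNA made from 0.5 µg of total RNA of each sample was hybridised to 1 one-colour array, per the labels. The deposited spot intensity values come from Agilent Feature Extraction 11.5.1.1 (protocol GE1_1105_Oct12), per the file headers, which also subtracted background; the submitters' processing notes name version 9.1. A value table deposited by the authors matched that intensity (median ratio 1.00) on a linear scale, with column medians of 12.95 and 18.55; nothing was scaled between arrays.

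From the processed signal, control spots (3671 an array) and spots marked as outliers (79 and 142, none of them on the 20 probes) were left out, log2 values of a probe's spots were averaged, and each array's 75th percentile was subtracted. A gene took its brightest probe by mean level among those well above background on at least 1 array. Genes were counted at 2-fold. Names other than the 10 came from RefSeq's mouse table (32977 probes by accession, 10216 by symbol, 520 by synonym); 12866 kept the file's name. The error model sets a multiplicative error of 0.1. The number of arrays limits the precision. The 10 genes and all lists were chosen with earlier results of these data known. Named genes are all 10 with every probe and, of each pathway list, up to 5 with the largest difference. Other genes, and the markers named, were chosen after their values were seen where they fall outside that rule. The steps were tested on simulated arrays. The alternatives used limma 3.58.1 in R 4.3.3 (normexp, offset 50) and Python 3.11.15. Some marker genes are not reported here.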

Additional observations from a re-analysis of the deposited data

How the results depend on the processing

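Areg, Ereg and Errfi1 stayed past 2-fold towards VZ/SVZ, and Egfr towards the neurosphere, under the 7 alternative processings. With quantile normalization 5 of the 9 measured genes were past 2-fold towards VZ/SVZ and 2 towards the neurosphere, with a median difference of 1.08. Over all genes measured, normexp gave 1470 and 1268 genes past 2-fold in place of 4934 and 2927, genes bright on both arrays gave 3171 higher in VZ/SVZ, and a 3-fold limit gave 2616 and 1180. The cause was not tested for quantile normalization. The offset of 50 added with normexp makes folds of low signals smaller by construction, and its share in the lower counts was not tested. Fewer genes enter the count of those bright on both arrays, and a 3-fold limit is stricter by construction. The median over a gene's probes moved Erbb4 to 0.06, Hbegf to 1.49, Errfi1 to 2.12 and Erbb2 to -0.18. Normexp moved Areg from 4.26 to 2.56, Ereg from 2.57 to 1.70 and Tgfa from -0.95 to -0.25, and Erbb3 was not well above background on either array. No paired analysis was possible because each group has 1 array and the labels give no replicate numbers.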
